A study of Mus musculus with 12 samples.

Results

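The hypertrophic zone of Cog mice was compared with that of wildtype mice from the same background, to find which functions change when a mutant protein other than collagen X loads the endoplasmic reticulum (ER) of hypertrophic chondrocytes. The samples were chosen by their titles, 3 Cog mice and 3 wildtype mice, and make up 6 of the 12 samples of the study. Cog mice carry the ColXTgcog transgene, in which the Col10a1 promoter directs the misfolding cog form of thyroglobulin to hypertrophic chondrocytes, and the labels do not tell hemizygous from homozygous animals. Neither group carries a collagen X mutation. The other 6 samples, from mice homozygous for a Schmid mutation of Col10a1 and their own wildtype, were used for the estimate of the spread and for a comparison of the 2 mutants. All mice were 14 days old. The hypertrophic zone was cut from the growth plate of a tibia of each mouse, its RNA was amplified over successive rounds, and each mouse had its own single-colour array, so that p-values measure the spread between these mice.

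Hypertrophic chondrocytes are the enlarged, matrix-secreting cells at the lower end of the growth plate, and collagen X is the collagen made by these cells. Proteins bound for secretion fold in the ER, where chaperones such as BiP hold them, disulfide isomerases join their cysteines, and proteins that fail to fold are drawn out and degraded. A load of unfolded protein is sensed by Atf6, Ire1 and Perk, which together raise transcription of folding and degradation genes and slow translation in what is called the unfolded protein response. Thyroglobulin is a thyroid protein with many disulfide bonds, which cartilage does not make.

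Signals are given as normalized log2 values, and a gene with several probes is represented by the probe with the highest mean signal. The share of spots well above background was 39.6 to 48.1% on the Cog arrays and 41.1 to 58.5% on the wildtype arrays. The Cog arrays lay on one slide with wildtype replicate 3 of the Schmid background, and their own wildtype arrays lay on another, so that slide and genotype cannot be told apart. All 12 chondrocyte identity markers, Col2a1, Acan and Sox9 among them, were well above background on all 6 arrays, and their summed signal overlapped between the groups. Wildtype replicates 2 and 3 were more alike (r = 0.98 over probes) than either was to wildtype replicate 1 (0.93 and 0.92). Muscle markers stood apart in wildtype replicate 3, where their summed signal (in units of 1000) was 747 against 155 and 163 in the other wildtype mice.

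Thyroglobulin itself, named Tgn on the array (NM_009375), checked the labels. Its log2 signal was 17.79, 17.84 and 17.95 in the Cog mice and 10.22, 9.90 and 9.75 in the wildtype mice. The groups were far apart, with a 239-fold difference (log2 7.90 ± 0.15 SE; limma, adjusted p = 1.24e-09). This probe lies at chr15:66934195-66934254 (mm7, as the array's annotation gives it). A second Tgn probe gave a 207-fold difference (log2 7.69).

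A call needed both a difference of at least 2-fold and an adjusted p no higher than 0.05. Of the 41174 probes, 644 (1.56%) were higher in Cog and 308 (0.748%) were lower. Counted at the brightest probe of each of 21080 genes, 427 genes (2.03%) were higher and 213 (1.01%) were lower. The rises were the larger changes, with a median of 2.73-fold and 87 genes at 4-fold or more, whereas the falls had a median of 2.35-fold and 7 genes at 4-fold or more. The median log2 change over all genes was -0.02. Of the called genes, 42 of the higher were not well above background in any wildtype mouse and 42 of the lower in no Cog mouse, and 6 were at background in both groups.

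**Figure D1:**
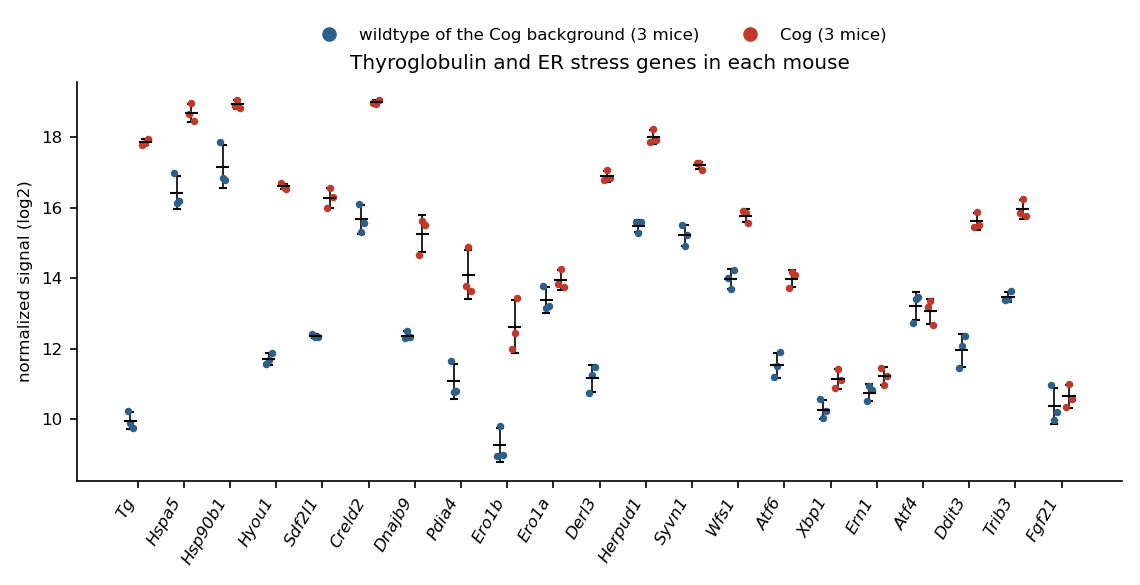
Normalized log2 signal (y axis) of Tg and 20 ER stress genes (x axis) in each of 3 Cog and 3 wildtype mice, 1 point per mouse. Tg, Hyou1, Sdf2l1, Creld2, Derl3 and Herpud1 show no overlap between the groups, while Ern1 differs by 0.47 and Atf4 by -0.15 on the log2 scale.

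Hyou1, Sdf2l1, Creld2, Ero1b and Pdia4, all of the ER folding machinery, were among the 12 largest rises of genes with an ordinary symbol. Of 34 ER lumen chaperones and cochaperones, 12 (35.3%) were called higher and 1 was called lower, with a median log2 change of 0.49. Hyou1 (NM_021395), an ER chaperone of the Hsp70 family that also serves as exchange factor for BiP, had log2 signals of 16.70, 16.60 and 16.53 in Cog and 11.55, 11.67 and 11.89 in wildtype. That is a 29.9-fold rise (log2 4.90 ± 0.36 SE; limma, adjusted p = 0.000252). Sdf2l1 (NM_022324), a partner of ER cochaperones, had signals of 15.99, 16.56 and 16.31 in Cog and of 12.42, 12.33 and 12.32 in wildtype, a 15.3-fold rise (adjusted p = 4.41e-05). Both genes thus separated the groups by several times the spread within each group. Creld2 (NM_029720), an ER protein with isomerase-like activity, reached 18.99, 18.95 and 19.07 in Cog against 16.12, 15.33 and 15.58 in wildtype. BiP itself, the product of Hspa5 (NM_022310), had signals of 18.67, 18.98 and 18.47 in Cog and of 16.98, 16.13 and 16.19 in wildtype. The wildtype mice differed among themselves here, with replicate 1 the highest, yet no wildtype mouse reached the lowest Cog mouse.

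Cochaperones that bring clients to BiP were among the called members. Dnajb9 showed 14.67, 15.63 and 15.52 in Cog and 12.29, 12.51 and 12.33 in wildtype, a 7.44-fold difference. Dnajc3, which also inhibits Perk, rose by 2.37 on the log2 scale (5.16-fold, adjusted p = 0.00116). Dnajb11 rose by 1.72 (adjusted p = 0.00404), and Hspa13, a further Hsp70 relative, by 1.29 (adjusted p = 0.0153). The remaining called members were Hsp90b1, the Hsp90 of the ER (1.77), Manf, a secreted ER stress protein (1.60), and the lectin chaperones Calr (1.04) and Canx (1.03). The call of Canx (adjusted p = 0.0315) was not checked with single mice left out. Fkbp7, a prolyl isomerase of the ER, was the member called lower, at 11.18, 12.19 and 11.85 in Cog and 13.17, 12.78 and 12.65 in wildtype (log2 change -1.13). Its call was lost when any one mouse other than Cog replicate 2 was left out, with adjusted p of 0.0786 to 0.111.

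Of 23 disulfide isomerases and ER oxidases, 5 (21.7%) were called higher and none was called lower. Ero1b (NM_026184), an oxidase that recharges disulfide isomerases, had log2 signals of 11.996, 12.44 and 13.45 in Cog and 8.96, 9.82 and 8.99 in wildtype, and it was well above background in 1 of the 3 wildtype mice. The difference was 10.4-fold (log2 3.37 ± 0.41 SE; limma, adjusted p = 0.0037). Its paralog Ero1a had signals of 13.84, 14.27 and 13.75 in Cog and 13.79, 13.15 and 13.21 in wildtype, a difference of 0.57 that did not pass the test (adjusted p = 0.218). Among the isomerases, Pdia4 was 13.79, 14.90 and 13.63 in Cog and 11.65, 10.78 and 10.81 in wildtype (8.14-fold, adjusted p = 0.0133). Txndc11 rose by 1.60, Pdia3 by 1.59 and Pdia6 by 1.46 on the log2 scale. Pdia4 lost its call without wildtype replicate 2 (adjusted p = 0.062) or 3 (0.0508), and Pdia3 without wildtype replicate 2 (0.0573). The call of Pdia6 (adjusted p = 0.0333) was not checked with single mice left out.

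ER-associated degradation, which draws misfolded proteins into the cytosol for the proteasome, had 5 of 47 members (10.6%) called higher and none lower. Derl3 (NM_024440), a member of the derlin family of membrane proteins, had signals of 16.78, 17.06 and 16.84 in Cog and 10.74, 11.26 and 11.49 in wildtype. After Tg this was the largest change on the array among genes at their brightest probe (53.2-fold, log2 5.73 ± 0.25 SE; limma, adjusted p = 5.87e-06). Herpud1 (NM_022331), which links derlins to the ubiquitin ligase, was 17.86, 18.24 and 17.93 in Cog and 15.59, 15.30 and 15.59 in wildtype (5.72-fold, adjusted p = 2.57e-05). The ligase Syvn1 stood at 17.28, 17.27 and 17.08 against 15.51, 14.92 and 15.23 (3.96-fold). Its adaptor Sel1l stood at 12.24, 12.91 and 11.39 against 10.52, 10.11 and 10.26 (3.69-fold). Wfs1, an ER membrane protein that acts on calcium and on Atf6 turnover, stood at 15.91, 15.85 and 15.57 against 14.02, 13.69 and 14.23 (3.47-fold). Derl3, Herpud1, Syvn1 and Wfs1 kept their calls when any 1 mouse was left out, whereas Sel1l lost its call without Cog replicates 1 (adjusted p = 0.0587) or 2 (0.0583) or wildtype replicates 2 (0.0938) or 3 (0.0724). The proteasome, which finishes this degradation, had none of 43 subunits called either way, with a median log2 change of -0.19.

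None of the 28 genes for the translocon and signal sequence processing was called (median log2 change 0.16), and Sec61a1, the channel's pore subunit, gained 0.84 (adjusted p = 0.0335), short of 2-fold. Of 49 genes for N-glycan synthesis and transfer, 3 were higher and 1 was lower. The higher ones were the mannosyltransferases Alg12 (1.43) and Alg2 (1.16) and the ER nucleotide sugar transporter Slc35b1 (1.40). The lower one was Uap1l1, related to the enzyme that makes UDP-N-acetylglucosamine, which stood at 11.21, 11.82 and 9.94 in Cog and at 13.12, 12.74 and 12.75 in wildtype. Cog replicate 3 was the lowest, and the fall of 1.88 on the log2 scale lost its call without Cog replicate 1 (adjusted p = 0.0514) or without wildtype replicate 1 (0.063), 2 (0.0862) or 3 (0.0721). Alg12 lost its call without wildtype replicates 2 (0.0654) or 3 (0.0559). Of 66 genes for traffic between ER and Golgi, 2 (3.03%) were called higher, near the 2.03% of all genes. These were Arfgap3, a regulator of Golgi coats (2.51-fold), and Mia3, known for loading collagens into transport carriers (2.03-fold), whose call was lost without Cog replicate 3, where it fell short of 2-fold (log2 0.91), or without wildtype replicates 2 (adjusted p = 0.0667) or 3 (0.0526).

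Taking the lists for chaperones, disulfide isomerases, degradation, translocon and N-glycans as one, 25 of 181 genes (13.8%) were called higher against 2.03% of all genes, and 2 (Fkbp7 and Uap1l1) were called lower. The count of higher genes was 17 without wildtype replicate 2.

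Many of the called chaperone genes share an upstream sequence, the ER stress response element (ERSE), known as a binding site for Atf6 and Xbp1 together with NF-Y. It was searched for as CCAAT, 9 bases of any kind and CCACG, on both strands, in the 250 bases before each transcript start of the RefSeq promoters (GRCm38.p6). Of 15386 tested genes with a promoter in that table, 23 held it (0.149%). Of these 23 genes, 11 were called higher in Cog (47.8%), 1 was called lower (Ptgdr2) and 11 were not called. Of the 325 higher genes with a promoter, 3.38% held the element, against 0.641% of the 156 lower genes. In the lists for chaperones, disulfide isomerases and degradation, it stood before 10 of the 19 genes called higher (52.6%) and before none of the 66 others (0%). No test was run on these shares, and a match of letters is not evidence of binding. The elements of the genes called higher are printed here 5′ to 3′ on the element's strand with 10 bases on either side, so that their shared and unshared bases can be compared. Capitals mark CCAAT and CCACG.
Derl3: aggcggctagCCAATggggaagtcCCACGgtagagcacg
Ero1b: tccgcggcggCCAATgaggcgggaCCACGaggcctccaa
Creld2 and Alg12: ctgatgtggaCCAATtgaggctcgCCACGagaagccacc
Dnajc3: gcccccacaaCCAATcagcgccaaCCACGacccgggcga
Hspa5: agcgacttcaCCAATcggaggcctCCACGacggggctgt
Syvn1: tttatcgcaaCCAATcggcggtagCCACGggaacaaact
Hsp90b1, distal: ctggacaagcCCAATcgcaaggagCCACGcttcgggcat
Hsp90b1, proximal: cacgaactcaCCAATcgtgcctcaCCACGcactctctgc
Pdia6: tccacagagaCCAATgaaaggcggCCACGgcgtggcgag
Calr: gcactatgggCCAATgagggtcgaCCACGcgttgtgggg
Canx: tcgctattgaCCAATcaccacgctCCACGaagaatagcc

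The distance from the element to the listed start ran from 26 bases at Syvn1 to 202 bases at Alg12. Creld2 and Alg12 are transcribed away from each other and share 1 element (chr15:88819520-88819538), with log2 changes of 3.33 and 1.43. The change was as large as 5.73 for Derl3 and as small as 1.03 for Canx, so genes with the same letters differed widely in size. The 12 genes with the element that were not called higher had log2 changes from -1.05 (Ptgdr2) to 0.74 (Xlr3c), and among them Calr4, a relative of Calr, changed by 0.55 (adjusted p = 0.173).

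The windows of Sdf2l1, Pdia4 and Dnajb9 did not hold these letters, and Hyou1 and Manf were not matched in the promoter table. Herpud1 held a second element, ERSE-II (ATTGG, 1 base of any kind and CCACG, which ends in the same letters as ERSE), found in 7 of the 15386 genes (0.0455%). The Herpud1 window also ends in CCAAT, a gap of the length in ERSE, and CCAC. The base after it lies past the window's edge and was not searched, so Herpud1 is not among the genes counted with ERSE. The unfolded protein response element TGACGTGG, known for Xbp1 and Atf6, stood before 0.78% of all genes and 1.23% of the higher ones. The C/EBP-ATF element TGATGNAAN, known for Atf4 and Chop, stood before 3.11% and 4.31%. The full windows of 3 strong responders are shown for context, with matched elements in capitals, read in the direction of the gene. They belong to Hspa5 (chr2:34771840-34772089, + strand), Derl3 (chr10:75893148-75893397, + strand) and Herpud1 (chr8:94386179-94386428, + strand). In Derl3 the element is on the opposite strand, and in Herpud1 the first capitals are a C/EBP-ATF element on the opposite strand and the second are ERSE-II.
Hspa5: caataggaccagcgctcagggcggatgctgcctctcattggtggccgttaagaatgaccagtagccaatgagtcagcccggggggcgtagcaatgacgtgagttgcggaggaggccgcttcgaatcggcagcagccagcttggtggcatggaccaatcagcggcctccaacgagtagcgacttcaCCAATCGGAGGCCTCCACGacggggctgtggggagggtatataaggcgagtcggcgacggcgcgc
Derl3: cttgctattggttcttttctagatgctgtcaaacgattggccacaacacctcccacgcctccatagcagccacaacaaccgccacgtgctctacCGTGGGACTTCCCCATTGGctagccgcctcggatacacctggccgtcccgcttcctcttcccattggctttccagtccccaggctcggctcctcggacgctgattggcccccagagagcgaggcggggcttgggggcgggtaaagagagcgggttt
Herpud1: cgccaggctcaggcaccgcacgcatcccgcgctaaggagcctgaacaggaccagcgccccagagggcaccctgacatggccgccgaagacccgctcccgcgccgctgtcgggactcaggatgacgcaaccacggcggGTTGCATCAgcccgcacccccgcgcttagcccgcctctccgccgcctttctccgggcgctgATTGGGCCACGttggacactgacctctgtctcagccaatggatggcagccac

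Of 14 sensors and transcription factors of the unfolded protein response, 1 was called higher and none lower, with log2 changes from -1.40 to 2.47. Atf6 had signals of 13.71, 14.18 and 14.08 in Cog and of 11.18, 11.50 and 11.89 in wildtype (5.53-fold; limma, adjusted p = 0.00105), while its second probe changed by 0.55 (adjusted p = 0.0987). Ern1, which encodes Ire1, was 11.47, 10.97 and 11.23 in Cog and 10.50, 10.95 and 10.82 in wildtype, with a change of 0.47 (adjusted p = 0.164). Eif2ak3, which encodes Perk, was 13.08, 13.57 and 13.77 in Cog and overlapped with the wildtype values of 13.32, 11.91 and 11.56 (2.31-fold, log2 1.21 ± 0.65 SE, adjusted p = 0.321). Xbp1, whose mRNA is spliced by Ire1, had signals of 10.88, 11.44 and 11.10 against 10.57, 10.03 and 10.23 (change 0.87, adjusted p = 0.248), and probe signals of this kind do not tell spliced from unspliced mRNA. Atf4, which acts below Perk and is governed by translation, changed by -0.15 (95% CI -0.74 to 0.45). Creb3, a transcription factor anchored in the ER membrane, changed by 0.68 (adjusted p = 0.294). Its relatives Creb3l1 and Creb3l3 lay below all wildtype mice without passing the test (log2 change -0.94, adjusted p = 0.117, and at least 2.15-fold, adjusted p = 0.0644).

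Of 24 transcripts that Perk, Atf4 and Chop are known to induce, 10 (41.7%) were called higher and none lower. Herpud1, also counted in the degradation list above, was among the 10. The other 14 were not called, and 2 of them lay below all wildtype mice. The log2 changes ran from -0.84 to 3.66 with a median of 0.87. Ddit3 (NM_007837), which encodes Chop, had signals of 15.46, 15.88 and 15.51 in Cog and of 11.44, 12.09 and 12.36 in wildtype (12.6-fold; limma, adjusted p = 8.54e-05). Trib3 (NM_144554), a pseudokinase that restrains Atf4 and Chop, had 15.86, 16.27 and 15.76 in Cog and 13.38, 13.41 and 13.65 in wildtype (5.6-fold, adjusted p = 6.02e-05). Car6, a secreted carbonic anhydrase with a Chop-induced form, had 13.99, 14.21 and 13.47 against 10.80, 11.54 and 11.34 (6.34-fold, adjusted p = 0.000512). These 3 genes kept their calls when any 1 mouse was left out. Smaller rises were seen for Atf3 (4.34-fold), a stress-induced transcription factor, and for Gdf15 (4.78-fold), a secreted stress cytokine. Stbd1, a glycogen-binding protein, rose 4.57-fold, and Chac1, which degrades glutathione, rose 3.81-fold. Ppp1r15a, which restores translation by dephosphorylating eIF2 alpha, rose at least 2.91-fold, and Cebpb, the partner of Chop, rose 2.89-fold. Fgf21, a hormone induced by Atf4, gave signals of 10.36, 11.00 and 10.58 in Cog and 10.96, 9.97 and 10.19 in wildtype at its brightest probe, and these overlapped (change 0.28, adjusted p = 0.6). Its other probe was called higher, at 10.01, 10.74 and 11.21 in Cog against wildtype signals not well above background (at least 2.52-fold).

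Amino acid supply is a known concern of Atf4. Of 22 enzymes of amino acid synthesis and one-carbon metabolism, 5 (22.7%) were called higher and none lower, and their median log2 change was 0.55. Bcat1, the cytosolic branched-chain transaminase, was 15.20, 14.87 and 14.88 in Cog and 13.47, 13.05 and 12.93 in wildtype (3.58-fold; limma, adjusted p = 0.00172). The alanine transaminase Gpt2 rose by 1.65, the aspartate transaminase Got1 by 1.36, the first enzyme of serine synthesis Phgdh by 1.29 and Shmt1 by 1.01 on the log2 scale. The call of Shmt1 (adjusted p = 0.0386) was not checked with single mice left out. Asparagine synthetase, Asns, was higher in all 3 Cog mice at 16.24, 16.59 and 16.94 against 15.51, 15.76 and 16.04, but the change of 0.82 did not pass the test (adjusted p = 0.117). Of 23 amino acid transporters, 3 were called higher, although the median over the list was -0.02. Slc7a11, the cystine transporter, was 11.76, 12.02 and 11.11 in Cog and 8.73, 9.60 and 8.81 in wildtype (5.98-fold, adjusted p = 0.0022), and was well above background in 1 wildtype mouse. Its partner chain Slc3a2 rose 2.25-fold, and Slc7a3, a carrier of arginine and lysine, rose 3.0-fold. Of 20 aminoacyl-tRNA synthetases, Wars (3.05-fold) and Lars (2.48-fold) were called higher. Calls were lost without wildtype replicates 2 or 3 for Gpt2 (adjusted p = 0.112 and 0.0931), Phgdh (0.151 and 0.10) and Slc7a3 (0.136 and 0.117). The same genes also lost their calls without Cog replicates 2 (0.0776, 0.0998 and 0.0841) or 3 (0.0897, 0.0861 and 0.108), and Phgdh without Cog replicate 1 (0.0913).

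Of 23 genes of ER calcium and redox balance, 3 were called higher and none lower. Steap1, a membrane protein of the Steap family known from endosomes, was 16.60, 17.00 and 16.61 in Cog and 14.51, 14.35 and 14.19 in wildtype (5.23-fold; limma, adjusted p = 0.000612). The calcium pumps that fill the ER, Atp2a2 and Atp2a3, rose by 1.66 and 1.13 on the log2 scale. Atp2a3 lost its call without any one of 4 mice, namely Cog replicate 3 (adjusted p = 0.0726) and wildtype replicates 1 (0.0554), 2 (0.0887) and 3 (0.0564). Among 36 genes of oxidative stress defence, 1 (2.78%, near the 2.03% of all genes) was called higher. This was Hmox1, heme oxygenase (2.31-fold, adjusted p = 0.0228). Its call was lost without Cog replicates 2 (0.0551) or 3 (0.0644) or wildtype replicates 1 (0.0538) or 2 (0.0922). None of 46 cytosolic and mitochondrial chaperones was called, and the difference from the ER chaperone list was not tested.

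**Figure D2:**
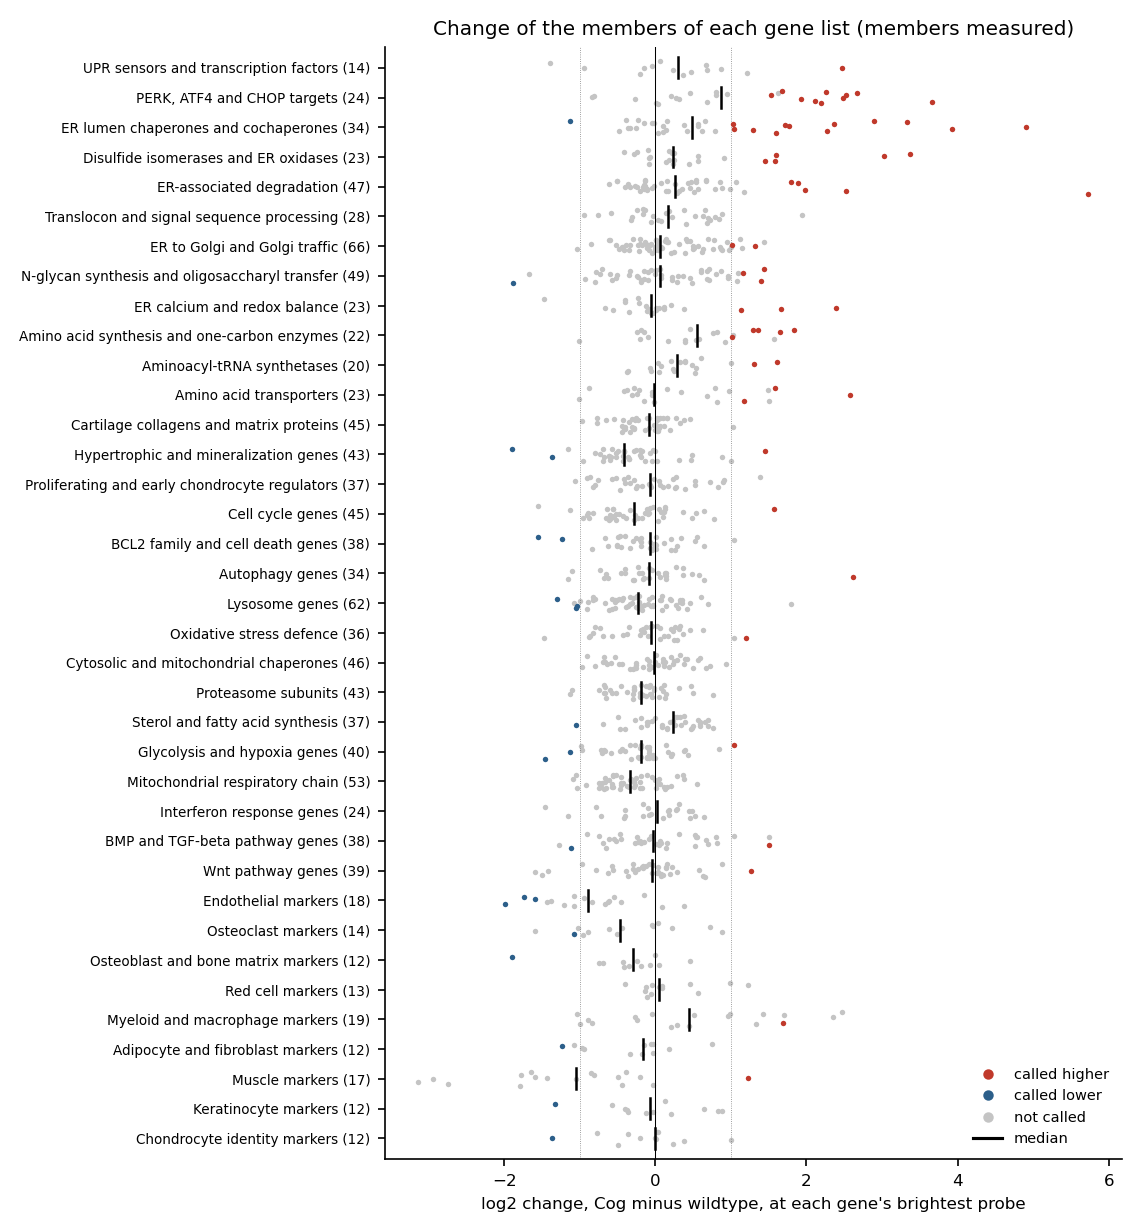
Log2 change, Cog minus wildtype (x axis), of each member of 37 gene lists (y axis, with the number of members measured), 1 point per gene at its brightest probe, coloured by call, with the list's median as a bar and dotted lines at 2-fold. The ER chaperone list has 12 called rises and the Perk target list 10, while the cartilage matrix list, at a median of -0.09, has no call.

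The cartilage matrix was not called changed. None of 45 cartilage collagens and matrix proteins passed the test in either direction, with a median log2 change of -0.09. Col2a1, the main collagen of cartilage, was 18.77, 18.46 and 18.77 in Cog and 18.74, 18.75 and 18.52 in wildtype, and the 95% CI of the change was -0.30 to 0.29. The interval was -0.24 to 0.27 for Acan, the main proteoglycan, and -0.19 to 0.25 for Comp, a matrix glycoprotein. For these 3 genes the intervals leave no room for a 2-fold change either way. None of 37 regulators of proliferating and early chondrocytes was called, and Sox9, the transcription factor of chondrocytes, overlapped between the groups (change 0.23, adjusted p = 0.787).

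Of 43 genes of hypertrophy and mineralization, 1 was called higher (2.33%) and 2 were called lower (4.65%), against 2.03% and 1.01% of all genes. The median log2 change was -0.41 against -0.02 over all genes, with quartiles of -0.61 and -0.11. Against the wildtype array on the slide of the Cog arrays, the median of this list had the opposite sign (0.14). Unc5b, a netrin receptor, was 17.24, 16.99 and 16.33 in Cog and 15.83, 15.23 and 15.16 in wildtype (2.73-fold; limma, adjusted p = 0.0259). Ihh, the hedgehog ligand made by prehypertrophic cells, was 16.10, 15.84 and 15.41 in Cog and 16.46, 17.40 and 17.60 in wildtype (2.58-fold lower, adjusted p = 0.0361). Dmp1, a mineral-binding protein of bone and of the lowest hypertrophic cells, was 13.82, 12.85 and 13.51 in Cog and 15.78, 14.90 and 15.20 in wildtype (3.72-fold lower, adjusted p = 0.0438). All 3 calls depended on single mice. Dmp1 lost its call whichever mouse was left out (adjusted p of 0.0609 to 0.118). Ihh lost its call without Cog replicates 2 (0.0777) or 3 (0.108) or wildtype replicates 2 (0.132) or 3 (0.115), and Unc5b without Cog replicates 1 (0.0694) or 2 (0.07) or wildtype replicates 2 (0.0989) or 3 (0.0872).

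Col10a1, whose promoter drives the transgene, had signals of 14.71, 15.06 and 15.40 in Cog and of 14.67, 13.75 and 13.76 in wildtype, with Cog above all wildtype mice (change 1.0, adjusted p = 0.387). Alpl, the phosphatase of mineralizing cartilage, was 18.08, 17.79 and 17.79 in Cog and 17.58, 16.56 and 16.86 in wildtype (change 0.89, adjusted p = 0.112), and it was called higher without wildtype replicate 1 (log2 1.18, adjusted p = 0.0396). Mmp13, the collagenase of the terminal zone, varied from 13.13 to 15.32 among Cog mice and from 13.74 to 16.64 among wildtype mice, so no change could be resolved (change -0.49 ± 1.0 SE). Spp1 (change -0.42), another terminal marker, also overlapped. Vegfa, the angiogenic factor of hypertrophic cartilage, was below all wildtype mice at 14.73, 15.23 and 15.69 against 15.81, 16.10 and 15.79 (change -0.68, adjusted p = 0.198). In dissected tissue, fewer cells of a type and less RNA per cell cannot be told apart.

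**Figure D3:**
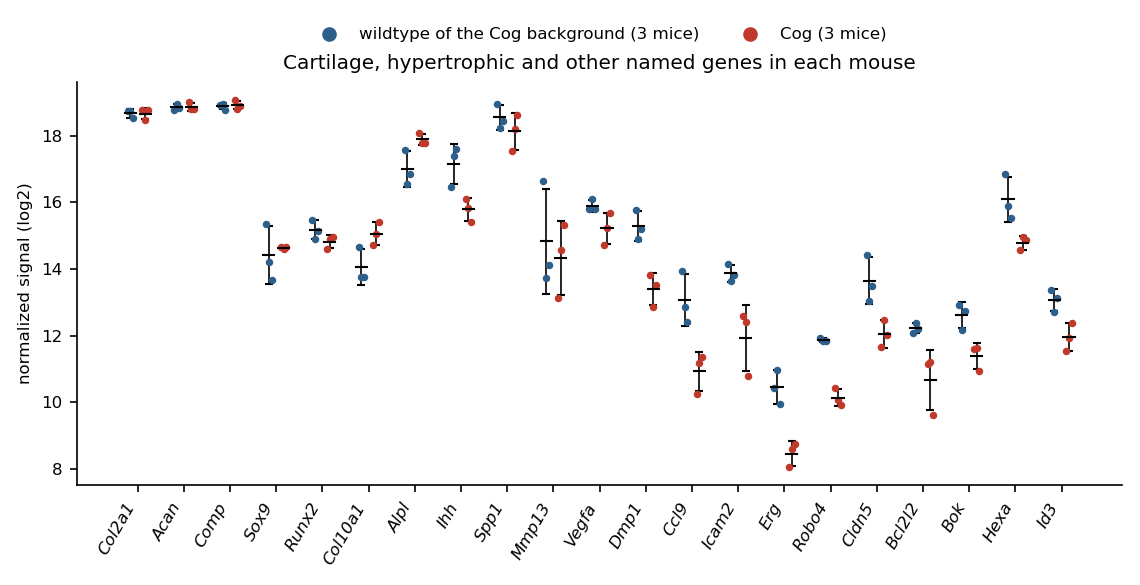
Normalized log2 signal (y axis) of 21 cartilage, hypertrophic, endothelial and other genes (x axis) in each of 3 Cog and 3 wildtype mice, 1 point per mouse. Col2a1, Acan and Comp coincide in both groups (changes of -0.01, 0.02 and 0.03), Mmp13 scatters widely in both, and Ihh, Dmp1 and Icam2 lie lower in Cog.

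Growth, death and degradation genes had few calls. The share called higher was 2.22% of the cell cycle list and 2.94% of the autophagy list, near the 2.03% of all genes. The share called lower was 5.26% of the cell death list and 4.84% of the lysosome list, against 1.01% of all genes. Of 45 cell cycle genes, Gadd45a, a growth arrest gene induced by stress, was called higher (2.96-fold; limma, adjusted p = 0.017) and lost its call without Cog replicate 2 (0.0517) or wildtype replicate 2 (0.0734). Of 38 genes of the BCL2 family and cell death, 2 were called lower and none higher. Bcl2l2, a survival member, was 11.15, 11.22 and 9.63 in Cog and 12.09, 12.38 and 12.20 in wildtype. Bok, a death-promoting member, was 11.58, 11.64 and 10.93 in Cog and 12.93, 12.16 and 12.75 in wildtype. Both calls depended on single mice, with adjusted p up to 0.146 for Bcl2l2 (without wildtype replicate 2; 0.0736 and 0.112 without wildtype replicates 1 and 3) and from 0.0654 to 0.128 for Bok, whichever mouse was left out. Of 34 autophagy genes, Ulk2, an initiating kinase, was called higher at its brightest probe, with 17.30, 16.91 and 17.29 in Cog and 14.79, 14.19 and 14.68 in wildtype (6.12-fold, adjusted p = 0.00131). The other 3 Ulk2 probes changed by -0.31, -0.49 and 0.54 and were not called. Of 62 lysosome genes, 3 were called lower and none higher, namely the hydrolases Hexa (2.46-fold lower), Gla (2.07-fold) and Fuca1 (2.05-fold). None of these 3 calls was stable. Hexa lost its call without any mouse but wildtype replicate 3, falling short of 2-fold without wildtype replicate 1 (log2 change -0.92) and at adjusted p of 0.0632 to 0.0881 otherwise. Gla lost its call without any mouse but Cog replicate 2 (0.0895 to 0.149), and Fuca1 without Cog replicates 2 (0.0604) or 3 (0.0556) or wildtype replicates 2 (0.132) or 3 (0.0985).

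Of 40 genes of glycolysis and hypoxia, Ndrg1, a hypoxia-induced gene, was called higher (2.05-fold), and the hypoxia factor Epas1 (2.75-fold) and lactate dehydrogenase B, Ldhb (2.18-fold), were called lower (5% of the list against 1.01% of all genes). None of 53 subunits of the respiratory chain was called (median log2 change -0.33), and of 37 genes of sterol and fatty acid synthesis, Mvk, mevalonate kinase, was called lower (2.07-fold). Of 38 BMP and TGF-beta pathway genes, the BMP antagonist Chrd was called higher (2.84-fold) and Id3, a target of BMP signals, lower (2.17-fold). Of 39 Wnt pathway genes, the receptor Fzd7 was called higher (at least 2.22-fold, as it was not well above background in wildtype). The shares called higher were 2.5% of the glycolysis, 2.63% of the BMP and TGF-beta and 2.56% of the Wnt list, near the 2.03% of all genes. The shares called lower were 2.7% of the sterol and 2.63% of the BMP and TGF-beta list, against 1.01% of all genes. None of 24 interferon response genes was called. Of these genes, only Ldhb and Fzd7 kept their calls whichever mouse was left out. Epas1 lost its call without any mouse but Cog replicate 3 (adjusted p of 0.0579 to 0.116), Ndrg1 without Cog replicates 2 or 3 or wildtype replicates 1 or 3 (0.0528 to 0.08), and Mvk without Cog replicate 3 or wildtype replicates 2 or 3 (0.0726 to 0.107). Chrd lost its call without any mouse but wildtype replicate 3 (0.0696 to 0.12), and Id3 without any but Cog replicate 3 (0.0588 to 0.102).

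Markers of other cells in or near the dissected zone were set beside these changes. Of 18 endothelial markers, 3 were called lower (16.7%) and none higher, with a median log2 change of -0.89. Their summed signal (in units of 1000) was 50.7, 52.2 and 68.6 in Cog and 127, 102 and 108 in wildtype, with no overlap, and 14 to 15 of the 18 were well above background in Cog against 16 to 17 in wildtype. Erg, an endothelial transcription factor, was not well above background in any Cog mouse (at least 1.54-fold lower). The guidance receptor Robo4 was 10.41, 10.07 and 9.91 in Cog and 11.93, 11.84 and 11.83 in wildtype (3.33-fold lower). Cldn5, the endothelial tight junction protein, was 3.02-fold lower. The call of Erg was lost whichever mouse was left out (adjusted p of 0.0504 to 0.111), that of Robo4 without wildtype replicate 2 (0.0592), and that of Cldn5 without Cog replicates 1 (0.0732) or 3 (0.0702) or wildtype replicate 3 (0.0656). Against the wildtype array on the same slide, the median of the list was -0.46.

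The summed signal of muscle markers (in units of 1000) was 96.3 to 124 in Cog and 155 to 747 in wildtype, with a median log2 change of -1.05, and 1 of the 17, Myh3, was called higher (2.34-fold). The sum of myeloid markers was 157 to 198 in Cog and 98.7 to 153 in wildtype, and 1 of 19 was called higher, the granule protease Prtn3 (3.22-fold). Members of the list went both ways. The granule genes Camp (2.47, overlapping between the groups) and S100a9 (2.35) and the lysozyme Lyz2 (1.43) had positive log2 changes. The macrophage genes Csf1r (-1.04), Cd68 (-0.997), Tyrobp (-0.89) and Fcer1g (-0.84) had negative ones. Other members did not follow this split. The granule genes Elane (-0.04) and Ngp (0.29) and the macrophage gene Adgre1 (0.44) were at background in both groups. Apart from Prtn3, none of these genes passed the test at its brightest probe. Another probe of Fcer1g was called lower. Sums overlapped between the groups for osteoclast markers (83.4 to 118 against 85.1 to 185), osteoblast and bone matrix markers (777 to 1138 against 1005 to 1500), red cell markers (114 to 323 against 120 to 253), adipocyte and fibroblast markers (195 to 256 against 211 to 352) and keratinocyte markers (34.7 to 40.9 against 40.7 to 49.9). In these lists, Tcirg1, Dmp1, Thy1 and Krt5 were the called members, all lower. The calls of Myh3 and Thy1 were lost without Cog replicates 1 or 2 or wildtype replicates 2 or 3 (adjusted p of 0.055 to 0.0934 and of 0.0906 to 0.128), that of Thy1 also without wildtype replicate 1 (0.0536), and that of Dmp1 as given above. The part of these cells in the called changes was not tested.

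Some of the largest changes lay outside the lists. Ciart (NM_001033302), a repressor of the circadian clock, was 12.73, 13.13 and 13.49 in Cog and 9.65, 9.94 and 9.66 in wildtype (10.3-fold; limma, adjusted p = 4.41e-05). Bhlha15, also called Mist1, a transcription factor of secretory cells, was 12.27, 12.47 and 11.89 against 8.95, 9.10 and 9.53 (8.10-fold, adjusted p = 0.00128), and its second probe changed by 0.48 and was not called. Masp2, a complement protease, was 11.42, 12.24 and 12.47 in Cog and not well above background in wildtype (at least 6.16-fold). Lifr, the receptor for leukemia inhibitory factor, was 14.57, 13.69 and 13.41 in Cog and 11.70, 9.84 and 10.76 in wildtype (8.70-fold, adjusted p = 0.0159). Its other 4 probes changed by -0.55, -0.72, -1.40 and -0.05 and were not called, and its call was lost without wildtype replicates 2 (0.0651) or 3 (0.0526).

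Among the falls, Fam171a1, a membrane protein, was 12.20, 11.33 and 11.26 in wildtype and not well above background in Cog (at least 3.40-fold lower). Trpv2, a calcium-permeable channel, fell 4.14-fold, and Ptges3l, related to an Hsp90 cochaperone, fell 4.28-fold. Cyb5r3, a cytochrome b5 reductase, was 12.64, 12.67 and 13.14 in Cog and 14.87, 14.61 and 14.56 in wildtype (3.64-fold lower, adjusted p = 0.00241). These 4 genes kept their calls whichever mouse was left out. The chemokine Ccl9 (4.44-fold) and Ctnnbip1, an inhibitor of beta-catenin (4.45-fold), were also lower. The adhesion protein Icam2 (3.85-fold), Myct1 (at least 3.31-fold) and the chemokine receptor Xcr1 (4.32-fold) were lower as well. Calls were lost without wildtype replicate 2 for Ccl9 (0.0582) and Myct1 (0.0517), and without any wildtype replicate for Ctnnbip1 (0.0859 to 0.135) and Icam2 (0.0638 to 0.0792). Ctnnbip1 also lost its call without Cog replicate 2 (0.0583).

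Named genes were not always seen alike by all of their probes. Of the 95 named genes, 46 had 69 further probes. For 19 of these probes the call was that of the brightest probe, for 50 it differed, and no probe was called in the opposite direction. Of the 50, 23 were well above background on all arrays of at least 1 group.

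Because slide and genotype coincide, the Cog arrays were also set against the wildtype array on their own slide, which came from the Schmid background. There is no test here, since it is 1 array. All 25 called ER genes were above it, 24 of them at least 2-fold, the exception being Alg2 (0.50). Of the 427 higher genes, 375 were above it and 166 at least 2-fold, whereas 47.3% of all genes were above it and 5.47% at least 2-fold. Of the 213 lower genes, 188 were below it and 76 at least 2-fold, against 52.7% and 5.54% of all genes. The rise of Tg was 8.31 and that of Derl3 5.83 on the log2 scale. Other named genes lost much of their change, with Lifr at 0.93, Ulk2 at 0.81, Prtn3 at 0.54 and Ccl9 at -0.25, and Xcr1 turned from -2.11 to 0.47.

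**Figure D4:**
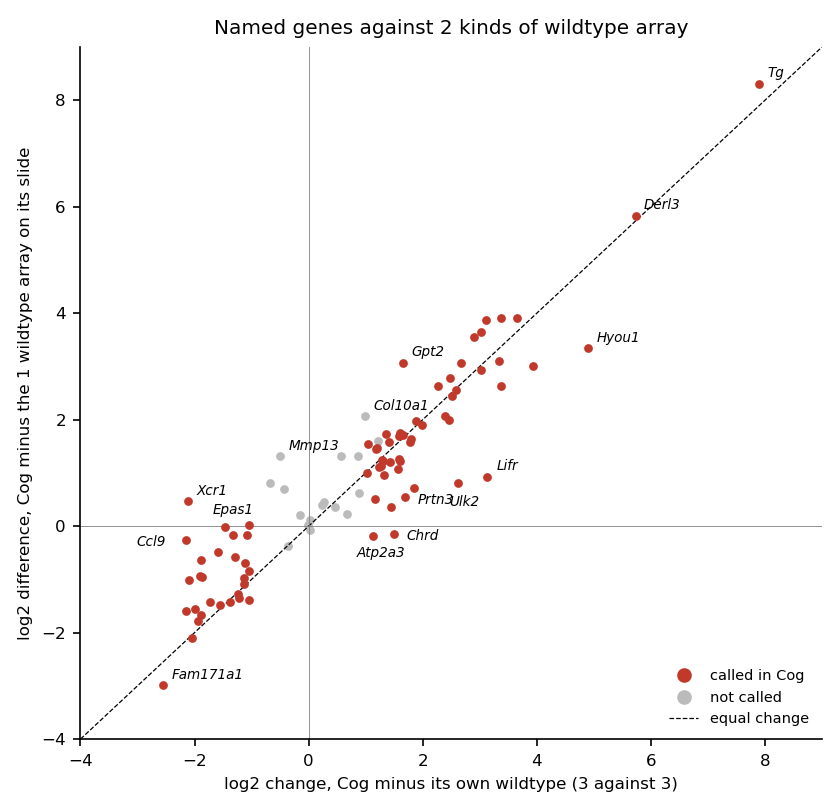
Log2 change of the 95 named genes in Cog against its own 3 wildtype arrays (x axis) and against the 1 wildtype array on the same slide (y axis), with the line of equal change. Tg and Derl3 lie on or near the line, while Xcr1, Chrd and Atp2a3 have opposite signs on the axes.

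The change in Cog was compared with that in Schmid hypertrophic zones to show where Cog differs. The test was of the difference between the 2 contrasts, each against its own wildtype. The Schmid arrays, too, lay on a slide that held none of their own wildtype arrays. Slide differences thus enter both contrasts and cannot be told apart from a difference between the mutants. At the brightest probe, 18.4% of all genes differed (adjusted p no higher than 0.05), and 25 of the 95 named genes did. Many named genes were chosen for their change in Cog, so this count is no result about them. In the ER, Hyou1 rose further in Cog (4.90 against 2.19 on the log2 scale; limma, adjusted p of the difference 0.00709), as did Derl3 (5.73 against 4.27, 0.0217) and Sdf2l1 (3.93 against 2.88, 0.0497). The difference for Hspa5 was 0.23 (adjusted p = 0.743) and that for Ddit3 was -0.84 (0.111). The changes were smaller in Cog for Car6 (2.66 in Cog against 5.89 in Schmid, 0.000514), Fgf21 (0.28 against 6.10, 0.000119), Ero1a (0.57 against 3.03, 0.00172), Slc7a3 (1.59 against 3.30, 0.0457), Ndrg1 (1.04 against 3.14, 0.00156) and Hmox1 (1.2 against 2.36, 0.0419). Shmt1 of the amino acid list went the other way (1.01 in Cog against -0.89 in Schmid, 0.00485). The Fgf21 values are those of its brightest probe, and its other probe was called higher in Cog. The log2 change of Ihh was -1.37 in Cog and -3.55 in Schmid (0.0093), and that of Alpl was 0.89 in Cog and -1.11 in Schmid (0.01). Of 14 alternatives, the difference passed the test in 5 for Sdf2l1, 7 for Slc7a3, 9 for Hmox1, 10 for Derl3 and 13 for Ihh.

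**Figure D5:**
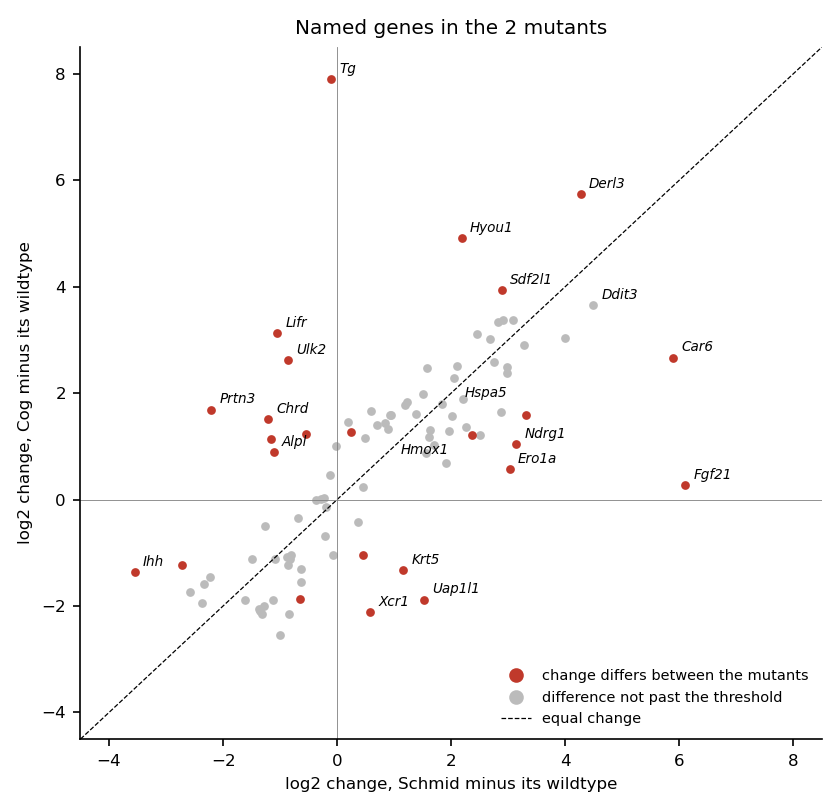
Log2 change of the 95 named genes in Schmid (x axis) and in Cog (y axis), each against its own wildtype, with the line of equal change and the 25 genes whose changes differ in red. Tg rises in Cog and changes by -0.10 in Schmid, Hyou1 and Derl3 lie above the line, and Car6, Fgf21, Ero1a and Ndrg1 lie far below it. Another probe of Fgf21 was called higher in Cog.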

How the data were processed

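The authors deposited, for each mouse, the scanner output of a single-colour array with the intensity of each spot and of its background, read with Agilent Feature Extraction 9.5.3 per the submitters' processing notes, together with log2 values of the same arrays in a series matrix. Starting from the deposited intensity, values were corrected with normexp (offset 50) and quantile normalized over the 12 arrays, control and flagged spots were left out, and spots of a probe were averaged on the log2 scale. The deposited log2 matrix served as an alternative. Group means were fitted with limma 3.58.1 (R 4.3.3) on all 12 arrays with 8 residual degrees of freedom and Benjamini-Hochberg adjustment over 41174 probes. The procedure was tested on simulated data. Of the probes, 33 lacked a value on some array and 6819 had no gene name. If every array of a group lacked a signal well above background at a probe, the fold is given as "at least", set against the higher of each array's lowest signal well above background and the probe's own signal. The number of arrays limits the precision.

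Members and gene lists were chosen with earlier results of these data known. Named genes are Tg, the 12 largest called rises and falls with an ordinary gene symbol whose groups do not overlap, up to 4 called members each way of each list, and key members whether called or not. Further called members of the ER and Perk lists, Shmt1, Asns, Sec61a1, Creb3l1, Creb3l3, the myeloid genes other than Prtn3, Calr4, Ptgdr2 and Xlr3c were named after their values were seen. These further genes were not checked with single mice left out. Promoters are those of RefSeq on GRCm38.p6, and probe coordinates are those of the array's annotation (mm7). Mice with the same replicate number were not known to be paired.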

Additional observations from a re-analysis of the deposited data

Results flagged for a closer look

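The log2 change in Cog differed from that in Schmid for 25 named genes, by the test of the difference itself, and 14 of these had the larger value in Cog. The difference (Cog minus Schmid) was 8.0 for Tg, 4.17 for Lifr, 3.9 for Prtn3, 3.48 for Ulk2, 2.72 for Hyou1 and 2.72 for Chrd. It was 2.29 for Atp2a3, 2.18 for Ihh, 2.00 for Alpl, 1.78 for Myh3, 1.49 for Thy1, 1.46 for Derl3, 1.05 for Sdf2l1 and 1.03 for Fzd7. The change had the larger value in Schmid for the other 11. The difference was -5.82 for Fgf21 at its brightest probe (its other probe was called higher in Cog), -3.40 for Uap1l1, -3.22 for Car6, -2.69 for Xcr1, -2.49 for Krt5 and -2.46 for Ero1a. It was -2.10 for Ndrg1, -1.72 for Slc7a3, -1.50 for Gla, -1.21 for Cyb5r3 and -1.16 for Hmox1. Of these genes, Derl3, Sdf2l1, Cyb5r3, Slc7a3, Hmox1, Fzd7, Thy1, Ihh and Gla passed the test in 5 to 13 of 14 alternatives, and the other 16 in all 14. Against the wildtype array on the same slide, the rises of Lifr, Ulk2 and Prtn3 in Cog were under 1 on the log2 scale and the changes of Chrd, Atp2a3 and Xcr1 had the opposite sign, and the part of the slide was not tested. Both mutants lay on slides apart from their own wildtype. With 3 arrays a group, no array was tested as an outlier.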

How the results depend on the processing

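Against 644 probes higher and 308 lower, a fit on the 6 arrays alone gave 364 and 133, and normalizing these 6 alone as well gave 340 and 103. The processed signal gave 1014 and 545 after quantile normalization, and 276 and 85 (with 13 ER genes higher in place of 25) when scaled to the 75th percentile, which moved the median change of all genes to 0.15. Array weights gave 1048 and 964, adjusted p alone 1122 and 764, and limma's treat against a 2-fold change 14 and 0, with 5 ER genes higher and 6 named genes differing from Schmid in place of 25. Both wildtype groups as control gave 186 lower. Leaving out 1 mouse gave 198 to 623 higher and 105 to 581 lower probes, 17 to 28 ER genes, 20 to 27 differing genes and a Tg change of 7.80 to 8.03. The fewest higher probes came without wildtype replicate 2. Mice with the same replicate number did not deviate together (r of -0.21, 0.15 and -0.20), and with the number as a replicate block 586 probes were higher and 301 lower, with 27 ER genes and 24 differing genes. Against the wildtype array on the same slide, which allows no test, the changes reversed for Xcr1 (0.47), Chrd (-0.15), Atp2a3 (-0.19) and Mvk (0.0217), and Tg rose by 8.31. Of the 77 called named genes besides Tg, 25 kept their call in all alternatives but treat, 9 kept it under treat, and all 77 kept their sign in every alternative with a test. The cause of these shifts was not tested. Dim signals limit the Cog arrays and wildtype replicate 1 (41.1%), where under 50% of spots were well above background.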

Other observations

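Some groups of genes outside the lists were looked at after their values had been seen. Of 18 genes of the circadian clock, Ciart (log2 change 3.37) and Cry2 (1.04, limma, adjusted p = 0.042), both repressors, were called higher. The other 16 were not called, among them the core activators Arntl (0.51) and Clock (0.07) and the repressors Per1 (0.48) and Nr1d1 (-0.12). Per2 was above all wildtype mice (0.94, adjusted p = 0.0591).

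A pair of growth and guidance ligands was higher in Cog. Efnb2, an ephrin, was 12.71, 12.17 and 12.22 in Cog and 10.50, 9.01 and 9.58 in wildtype (6.37-fold, limma, adjusted p = 0.00708), and 2.35 higher on the log2 scale than the wildtype array on the same slide. Fgf2 was 13.02, 12.20 and 11.81 against 10.74, 9.18 and 9.63 (5.62-fold, adjusted p = 0.0203), and 1.02 higher than that array.

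Of 1039 olfactory and vomeronasal receptor genes, which growth plate cells are not known to use, 16 (1.54%) were called higher and 9 lower. Over all genes the shares were 2.03% higher and 1.01% lower. Of the 16, 2 were at least 2-fold above the wildtype array on the same slide, against 166 of all 427 higher genes.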
